A study of Mus musculus with 6 samples.

Results

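The nuclear genes of oxidative phosphorylation were followed across cell classes and genotypes of the mouse aortic root. They were taken as every feature whose symbol begins with Nduf, Uqcr, Cox4 to Cox8 or Atp5 and that had at least 20 unique molecular identifiers (UMIs, each standing for 1 captured RNA molecule) over 6 libraries. Of 55402 features 108 had such a symbol, and 90 of these reached 20 UMIs. These 90 comprised 37 genes of complex I, 8 complex I assembly factors (Ndufaf), 8 genes of complex III, 20 of complex IV (Ndufa4 and Ndufa4l2 among them) and 17 of complex V. Of the other 18 symbols, many of them marked as pseudogenes, 17 had no UMI (a second Atp5o identifier among them), and Cox8c had 3. At the low end of the members were Cox7b2 with 34 UMIs and Cox5b-ps with 697.

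The respiratory chain of the inner mitochondrial membrane passes electrons from NADH and succinate to oxygen. Complexes I, III and IV pump protons as they do so, and complex V, the ATP synthase, uses the gradient to make ATP. A small set of core subunits is encoded by mitochondrial DNA, and the many others by nuclear genes, which must be made in matching amounts. Several subunits of complex IV exist as a widely expressed form and a form restricted to certain tissues or conditions. In the arterial wall, smooth muscle cells (SMC) of the media use ATP for contraction, and SMC that lose contractile markers and gain matrix and adhesion genes are called modulated.

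Libraries came from male mice aged 24 weeks, with aortic roots of 4 animals combined per group before digestion and sorting. There were 3 genotypes: littermate controls, mice heterozygous for the C1041G allele of Fbn1 (fibrillin-1; a model of Marfan syndrome) and mice with this Fbn1 allele and floxed Klf4, in which Klf4 deletion was induced in SMC according to the series' title and design. Each suspension was sorted for tdTomato, the fluorescent mark of traced SMC, into a lineage-positive and a lineage-negative fraction, and each fraction gave 1 library. The sources used here do not name the Cre driver or the time of induction, and no group had floxed Klf4 without the Fbn1 allele. Values are listed in the order control, Marfan, labelled Klf4-floxed throughout.

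Libraries held 47750360 to 95250397 UMIs. The Marfan lineage-positive library was shallow: 39.0% of its barcodes had fewer than 1000 UMIs, against 4.44% to 7.01% in the other 5, and its kept cells had a median of 2143 UMIs. Pairs of libraries shared at most 0.67% of the barcodes of the smaller one. Klf4 itself stood at 23.6, 42.0 and 121 CPM (UMIs of a gene per 1000000 UMIs of the class) in the SMC class, so it was highest in the library labelled Klf4-floxed. The reads counted here come from the 3' end, and the sources used here do not say whether that end lies in the floxed part, so the count does not check the deletion. That library is therefore called by its label, and no difference in it is read as an effect of Klf4. TDT, the added feature whose symbol matches the reporter, stood at 340, 414 and 227 CPM in lineage-positive and 5.36, 5.03 and 2.55 CPM in lineage-negative libraries.

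Cells were clustered without the 90 genes and without the further respiratory genes described below, and clusters were named from marker genes. Most of the results concern 6 classes: unmodulated SMC-like (3189, 7399 and 2961 cells) and modulated SMC-like (140, 1890 and 1421), which together form the SMC class and were taken from the lineage-positive libraries, and, from the lineage-negative libraries, fibroblast-like (2179, 2595 and 2317), macrophage- or monocyte-like (177, 1027 and 548), endothelial-like (179, 377 and 331, lymphatic cells included) and valve interstitial- or chondrocyte-like cells (265, 385 and 237). The ending "-like" is dropped below. Defining markers were present: the 7 SMC markers summed to 46945, 49006 and 44275 CPM in the SMC class and to 873, 1159 and 1479 CPM in fibroblasts. The valve class also carried fibroblast markers, summed at 36396, 36005 and 37945 CPM, against 34848, 29905 and 28449 CPM in fibroblasts. Clusters 2, 4, 8 and 12 had a marker of another class among their leading genes and stay unnamed. Cluster 12 (233, 331 and 337 lineage-negative cells) scored highest for macrophage or monocyte markers, with Folr2, F13a1 and Cd163 among its leading genes. Lyve1, a lymphatic marker, kept it unnamed, so the macrophage or monocyte class leaves these cells out. Each genotype and fraction was 1 library, so genotypes are compared without a test, by CPM ratios with exact 95% intervals that cover counting error only. Cell classes are compared over the 3 genotypes, which serve as blocks in edgeR's quasi-likelihood test with Benjamini-Hochberg adjustment over all genes. These 3 units differ in genotype, so their p-values measure how alike the difference between 2 classes was in the 3 genotypes.

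Among the named classes that were summed, the 90 genes took their largest share of UMIs in unmodulated SMC, in every genotype, and their smallest in neutrophils. A cluster named Schwann (87 cells) was not summed and has no value here. The summed share was 2.92%, 2.77% and 2.86% in unmodulated SMC, 2.48%, 2.32% and 2.33% in modulated SMC, 2.32%, 2.47% and 2.51% in endothelial cells, 1.97%, 1.96% and 1.92% in fibroblasts, 1.85%, 2.03% and 1.90% in macrophages or monocytes, and 1.76%, 1.97% and 1.93% in the valve class. Unmodulated SMC thus stood above each of the other summed named classes but the pericyte-like one without any overlap between genotypes, and the last 3 classes overlapped one another. Pericyte-like cells of the lineage-positive libraries had 2.80%, 2.57% and 2.34% (18, 95 and 83 cells), and neutrophils 1.01% in control and 0.938% in Marfan. The neutrophil values rest on 7 control and 201 Marfan cells, and the library labelled Klf4-floxed held no neutrophils. Among unnamed clusters, clusters 4 and 8, whose leading genes included Tnnt2, ran parallel to the 2 SMC groups at 2.91%, 2.81% and 2.88% and at 2.34%, 2.25% and 2.28%.

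**Figure D1:**
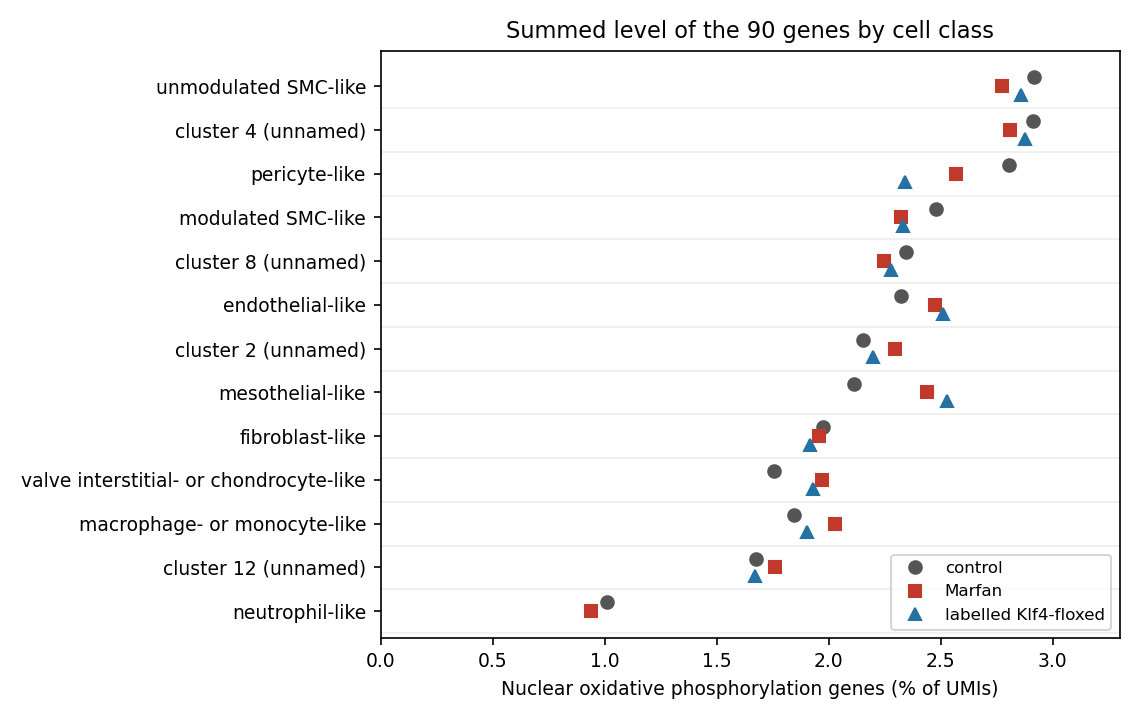
Share of all UMIs of a class taken by the 90 nuclear oxidative phosphorylation genes (x axis, percent), with 1 point per genotype for each class or cluster (y axis). Unmodulated SMC and cluster 4 stand at the top between 2.77% and 2.92%, fibroblasts, the valve class and macrophages between 1.76% and 2.03%, and neutrophils near 1%.

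Nearly every subunit made up a larger part of the counted RNA in SMC than in fibroblasts, whatever the complex. Of 89 members tested, 83 were higher in the SMC class and 5 lower (edgeR, adjusted p at most 0.05), where 33% of all 13218 genes tested were higher and 35.2% lower. The median log2 fold change of the members was 0.68, against -0.02 over all genes. Scaled to library totals instead of by TMM (edgeR's scaling, which assumes that most genes do not differ), 73 were higher and 5 lower. The medians of CPM ratios were then 0.49, 0.37 and 0.46 in the 3 genotypes, against -0.14, -0.19 and -0.15 for all features. Leaving out the library pair of 1 genotype left 76 to 83 higher and 3 to 5 lower. Shares of all genes were counted for the main test (TMM, all 3 genotypes) only, here and in the class comparisons below.

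In complex I, which takes electrons from NADH, all 37 members were higher in SMC (median log2 fold change 0.69, range 0.24 to 1.33). Ndufa12, an accessory subunit, was at 259, 240 and 230 CPM in SMC and at 110, 122 and 111 CPM in fibroblasts. Every SMC value lay above every fibroblast value, with a log2 fold change of 1.33 ± 0.067 (SE, n = 3 genotypes; edgeR adjusted p = 0.0002). Ndufa11, another accessory subunit, was at 463, 508 and 480 CPM in SMC and at 229, 249 and 236 CPM in fibroblasts (1.27 ± 0.048; edgeR adjusted p = 0.00011). Ndufs1, the large iron-sulphur core subunit, was at 39.6, 34.3 and 35.04 CPM against 29.55, 30.36 and 28.96 CPM (0.54 ± 0.070; edgeR adjusted p = 0.0026), and Ndufv1, the core subunit that binds NADH, at 114, 101 and 101 CPM against 92.0, 91.6 and 85.3 CPM (0.48 ± 0.056; edgeR adjusted p = 0.0019). Ndufb4 had the smallest fold change of the complex, 0.24, and its CPM overlapped between the classes (230, 222 and 226 against 238, 225 and 217), as did that of Atp5mpl. Scaled to library totals the direction of both turned. The 8 assembly factors, which help to build complex I without remaining in it, were all higher as well, with a median of 0.49 and Ndufaf3 the largest at 62.8, 59.8 and 57.9 CPM against 38.7, 37.0 and 36.7 CPM (0.93 ± 0.050; edgeR adjusted p = 0.00023).

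Complexes III and V held no member that was lower in SMC. All 8 complex III members were higher in SMC, with log2 fold changes from 0.68 to 1.07. The largest was that of Uqcrc1, a core protein of the matrix side, at 132, 116 and 115 CPM in SMC and 74.97, 69.5 and 60.9 CPM in fibroblasts (1.07 ± 0.055; edgeR adjusted p = 0.00021). All 17 complex V members were higher too, from 0.24 to 0.87. The 3 genes for subunit c, which forms the rotor ring and whose mature protein is the same for each, were Atp5g1 at 376, 405 and 397 CPM against 271, 314 and 288 CPM (0.68), Atp5g2 at 524, 433 and 464 CPM against 298, 312 and 308 CPM (0.87), and Atp5g3 at 269, 223 and 232 CPM against 178, 168 and 168 CPM (0.74). The catalytic beta subunit Atp5b was at 461, 430 and 416 CPM in SMC and 316, 344 and 325 CPM in fibroblasts (0.65 ± 0.066; edgeR adjusted p = 0.0012).

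Complex IV, cytochrome c oxidase, held all 5 members that were lower in SMC. Of its 19 tested members 13 were higher. Among them were the widely expressed forms Cox4i1 (1463, 1248 and 1252 CPM against 805, 808 and 823 CPM), Cox6a1 (503, 451 and 441 against 237, 245 and 239; log2 fold change 1.19 ± 0.066; edgeR adjusted p = 0.00024), Cox6b1 (455, 451 and 462 against 375, 370 and 363), Cox7a2 (569, 533 and 530 against 321, 333 and 319), Cox8a (861, 793 and 839 against 676, 641 and 609) and Ndufa4 (693, 681 and 695 against 375, 394 and 382). Cox5b-ps, named as a pseudogene of Cox5b, was also among the 13, at 1.86, 1.85 and 1.65 CPM against 0.87, 1.18 and 1.31 CPM, and its reads may be shared with Cox5b. The lower ones were the alternative forms Ndufa4l2, Cox8b, Cox6a2, Cox6b2 and Cox4i2, described below. Cox7a1, the form of heart and skeletal muscle, was at 2.04, 1.61 and 1.53 CPM in SMC and 1.98, 1.44 and 1.61 CPM in fibroblasts, and its difference did not pass the test.

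**Figure D2:**
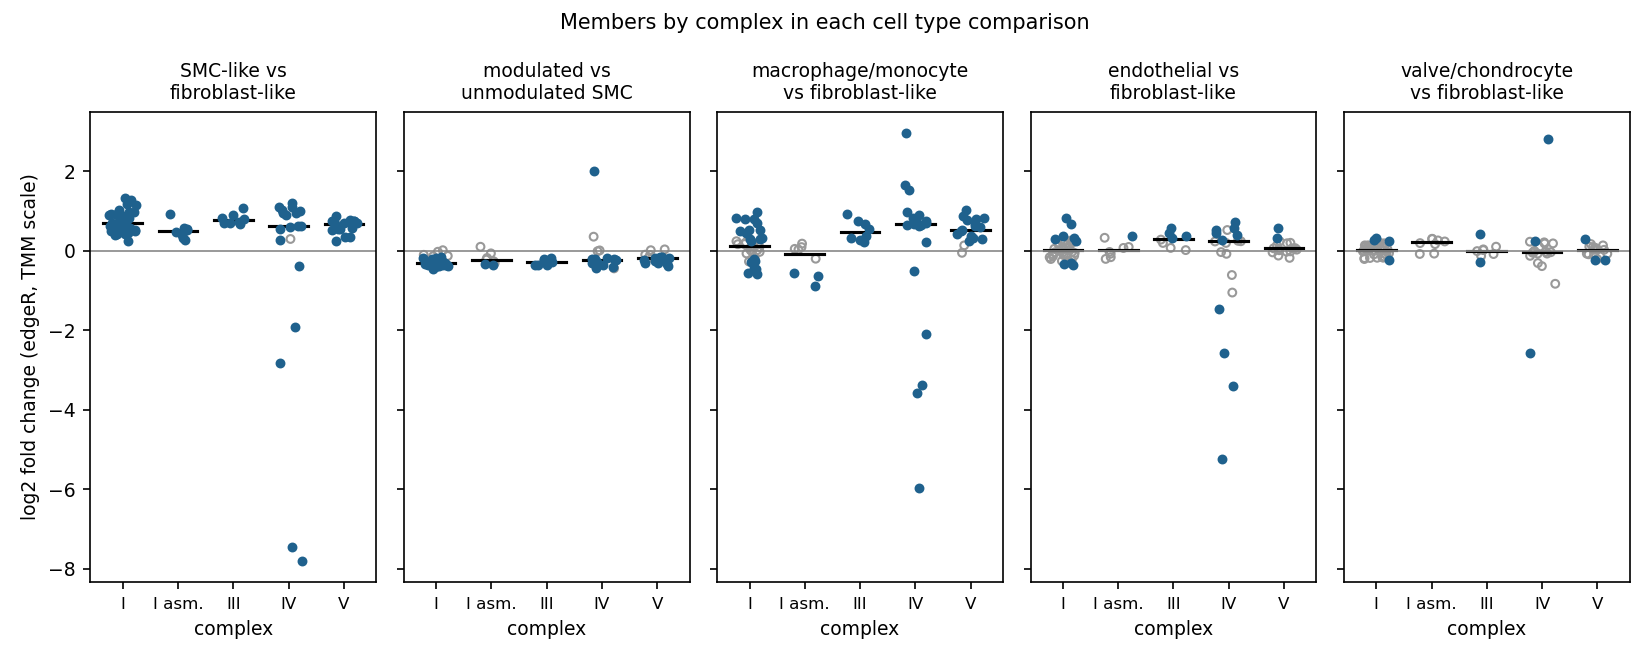
Log2 fold change of each member (points) by complex (x axis) in comparisons of cell classes, from edgeR with TMM scaling; filled points passed the test, black bars are medians, and fitted values of genes near 0 counts are no measured folds. In SMC against fibroblasts all members of complexes I, III and V lie above 0 and complex IV is split, and in modulated against unmodulated SMC most points lie between 0 and -0.47.

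SMC and fibroblasts came from different sort fractions and therefore different libraries. A few cells of each class fell into the other fraction and allow the comparison inside 1 library. Fibroblasts of the lineage-positive libraries had 2.05%, 2.01% and 1.94% of their UMIs in the 90 genes (47, 68 and 97 cells), beside 2.90%, 2.63% and 2.67% in the SMC class of the same libraries. SMC of the lineage-negative libraries had 2.70%, 2.38% and 2.42% (45, 115 and 73 cells), beside 1.97%, 1.96% and 1.92% in fibroblasts. The order was the same within either fraction in each genotype. Of 8 cardiomyocyte markers, summed to 358, 446 and 338 CPM in the SMC class, Tnnt2 made up 320, 400 and 299 CPM, while Myh6, Myl7 and Nppa stood at 0.3 CPM or less each.

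Other genes of the pathway stood higher in SMC too. All 4 genes of complex II (succinate dehydrogenase) were higher, with a median log2 fold change of 0.48. All 13 genes encoded by mitochondrial DNA (median 1.17) and all 13 genes of the citrate cycle (median 0.69) were higher as well. So were Cycs, the gene of cytochrome c, and Cyc1, that of cytochrome c1. Cells with over 10% of UMIs from mitochondrial DNA had been left out. Of 28 assembly factors of complexes I, III, IV and V outside the Ndufaf family, 20 were higher and 2 lower, Sco2 and Acad9. Among 13 regulators of mitochondrial gene expression 5 were higher and 4 lower. Of the 5 higher ones only Esrra, a nuclear receptor that activates these genes, is given here (15.6, 15.6 and 15.3 CPM against 10.5, 10.6 and 10.5 CPM; log2 fold change 0.80 ± 0.068; edgeR adjusted p = 0.00072). The 4 lower ones were the factors Gabpa (-0.54) and Nrf1 (-0.31) and the coactivators Ppargc1a (-0.42) and Pprc1 (-0.73). Of 4 carriers 3 were higher, among them Slc25a4, which exchanges ADP for ATP, at 1024, 905 and 904 CPM against 542, 558 and 549 CPM, and Ucp2, an uncoupling protein family member, was lower at 0.18, 0.47 and 0.20 CPM against 22.03, 15.6 and 20.8 CPM. Of 7 tested hypoxia genes 6 were higher and Vegfa lower.

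Promoters are shown for 3 genes of complexes IV and V, all 3 higher in SMC than in fibroblasts. They were picked because they carry matches to the motifs of GABP or of NRF1, factors known to act on respiratory genes. They were chosen after the matches were seen, from members with no other gene in the window. Of the 90 members, 73 had a promoter in the RefSeq table for GRCm38.p6, which was searched over 300 bases (250 before and 50 after the start) on both strands. The letters CCGGAAG, named for GABP and other ETS factors, occurred in 16 members (21.9%) and in 9.12% of all 27025 promoters. The NRF1 motif (GCGC, any base, then TGCGC) occurred in 16 (21.9%, against 4.78%), the YY1 letters AAGATGGCG in 7 (9.59%, against 1.49%), the letters TCAAGGTCA of oestrogen-related receptors in 1 (1.37%, against 0.407%) and the letters ACGTG of hypoxia-inducible factors in 17 (23.3%, against 19.7%). The bases before the start are printed 5′ to 3′ on the gene's strand, with matches to these 2 motifs, on either strand, in capitals. All 3 genes lie on the minus strand, at chr5:115348959-115349208 (Cox6a1), chr7:30626115-30626364 (Cox6b1) and chr15:102671048-102671297 (Atp5g2).
Cox6a1: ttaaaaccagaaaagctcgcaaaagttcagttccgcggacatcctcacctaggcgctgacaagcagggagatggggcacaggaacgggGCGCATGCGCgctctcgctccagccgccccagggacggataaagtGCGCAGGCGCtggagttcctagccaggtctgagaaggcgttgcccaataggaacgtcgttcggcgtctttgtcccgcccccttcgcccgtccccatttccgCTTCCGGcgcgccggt
Cox6b1: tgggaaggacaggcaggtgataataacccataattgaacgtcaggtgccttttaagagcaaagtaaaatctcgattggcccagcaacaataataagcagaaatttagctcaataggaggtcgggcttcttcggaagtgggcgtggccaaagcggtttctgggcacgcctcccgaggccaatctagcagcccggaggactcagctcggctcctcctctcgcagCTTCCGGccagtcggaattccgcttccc
Atp5g2: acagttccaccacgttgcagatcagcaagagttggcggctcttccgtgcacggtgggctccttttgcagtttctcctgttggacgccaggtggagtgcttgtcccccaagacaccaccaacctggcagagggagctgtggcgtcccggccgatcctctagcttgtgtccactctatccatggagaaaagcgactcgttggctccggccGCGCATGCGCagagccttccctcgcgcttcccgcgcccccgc
Cox6a1 holds matches to both motifs, Cox6b1 to the ETS letters and Atp5g2 to the NRF1 motif. A match is a description of the letters only.

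The alternative forms of complex IV subunits divided the non-contractile classes. Ndufa4l2, a hypoxia-inducible relative of Ndufa4, had 5, 94 and 13 UMIs in the SMC class (0.13, 1.76 and 0.21 CPM) and 154, 141 and 168 CPM in fibroblasts (edgeR adjusted p = 0.0014). Pericyte-like cells had the highest level of the summed named classes, at 749, 547 and 353 CPM. Ndufa4l2 stood at 26.2, 23.4 and 22.8 CPM in the valve class, 4.82, 7.28 and 1.62 CPM in endothelial cells and 2.56, 1.70 and 1.72 CPM in macrophages. In fibroblasts 52.2%, 51.5% and 55.1% of cells had an Ndufa4l2 UMI, against 1.69%, 1.36% and 1.64% of macrophages of the same libraries, with median depths of 9314, 9931 and 9976 UMIs and of 9746, 9645 and 8762 UMIs. After thinning to 2000 UMIs per cell the shares were 24.9%, 23.2% and 26.6% against 0.58%, 0.51% and 0.38% (64, 87 and 61 fibroblasts and 5, 54 and 15 macrophages were shallower and left out). The fibroblast shares thus lay far above those of macrophages of the same libraries.

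Fibroblast clusters were not alike in it. In the 3 clusters of the class, Ndufa4l2 was at 191, 179 and 196 CPM in cluster 3, at 129, 112 and 159 CPM in cluster 5 and at 4.81, 18.8 and 4.19 CPM in cluster 16, which was led by interferon-induced genes such as Cxcl10 and Ifit3. Of 6 pericyte markers, fibroblasts carried Abcc9 at 322, 238 and 320 CPM and Kcnj8 at 108, 98.4 and 119 CPM, while Higd1b, a defining marker, was at 0 in control and Marfan and at 0.085 CPM in the library labelled Klf4-floxed, and Vtn was at 0.048, 0.81 and 0.34 CPM.

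Cox4i2, the alternative form of subunit 4 that is induced at low oxygen, followed another order. It was at 154, 232 and 262 CPM in the valve class, at 171, 164 and 150 CPM in the unnamed cluster 2, whose leading genes were Cyp2e1 and Prss35, and at 173, 159 and 128 CPM in pericyte-like cells. Fibroblasts had 36.1, 27.2 and 34.6 CPM, of which cluster 16 had 93.5, 112 and 75.4 CPM, SMC 19.8, 20.98 and 21.3 CPM, endothelial cells 6.42, 8.61 and 3.24 CPM and macrophages 1.54, 2.17 and 1.72 CPM. The valve class, cluster 2 and pericyte-like cells did not separate from one another over the genotypes, and each lay above fibroblasts, SMC, endothelial cells and macrophages. Its partner Cox4i1 was at 656, 808 and 781 CPM in the valve class and at 805, 808 and 823 CPM in fibroblasts. Against fibroblasts, Cox4i2 had a log2 fold change of -0.40 ± 0.11 in SMC (edgeR adjusted p = 0.03), and of 2.80 ± 0.18 in the valve class (edgeR adjusted p = 7.9e-06).

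Cox6b2, known as the testis form of subunit 6b, was at 44.0, 38.8 and 39.2 CPM in fibroblasts and at 4.399, 5.96 and 5.63 CPM in unmodulated SMC, with modulated SMC between at 14.2, 22.9 and 24.7 CPM. Mesothelial cells had 139, 55.2 and 254 CPM, from 39, 96 and 138 UMIs. The SMC class against fibroblasts gave -1.92 ± 0.34 (edgeR adjusted p = 0.0066). Cox8b, a striated muscle and brown fat form, had 2, 1 and 2 UMIs in the SMC class, at or under the 3 counts that a count of 0 allows, and 217, 131 and 183 UMIs (10.5, 4.82 and 7.76 CPM) in fibroblasts (edgeR adjusted p = 2.5e-05). The 5 fat cell markers summed to 0.67, 0.81 and 1.14 CPM in fibroblasts, with Cidec and Ucp1 at 0 in control and Marfan. Cox6a2, the heart and skeletal muscle form of subunit 6a, had 1, 18 and 2 UMIs in the SMC class and 29, 25 and 27 in fibroblasts (edgeR adjusted p = 0.028), and stood at 5.13, 8.68 and 4.96 CPM in macrophages.

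**Figure D3:**
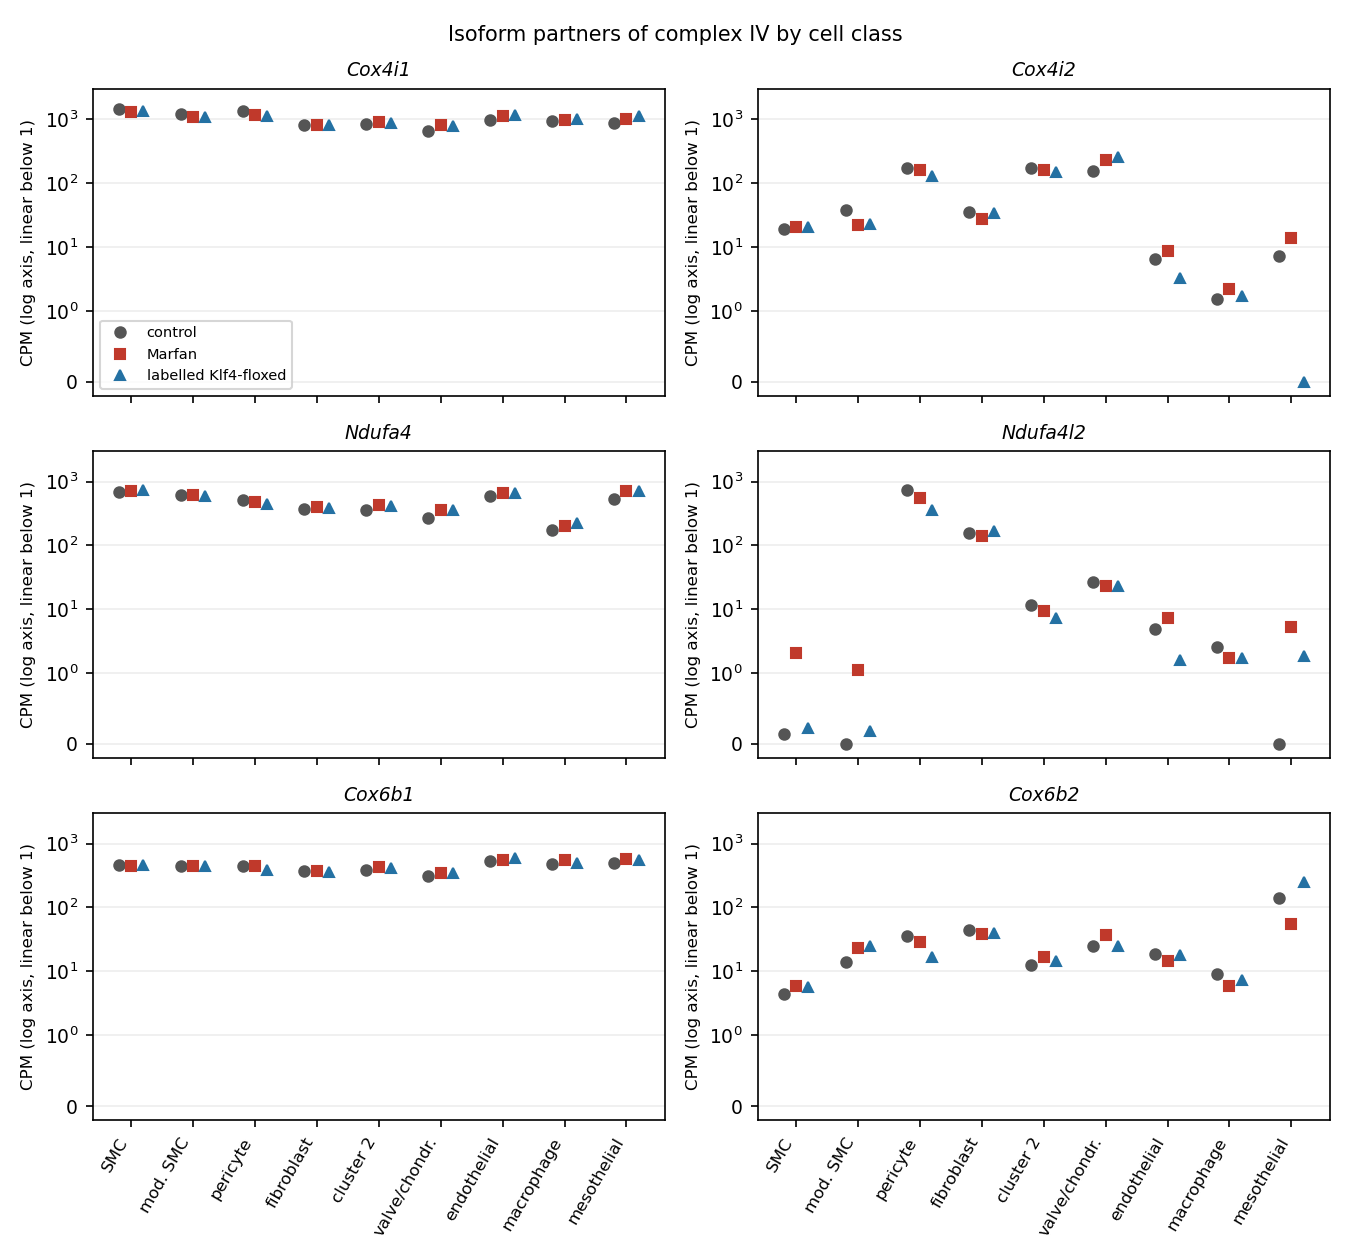
CPM (y, a log axis that is linear below 1) of complex IV isoform partners by class or cluster (x; the column SMC holds unmodulated cells), 1 point per genotype. Ndufa4l2 is high in pericyte-like cells and fibroblasts, and Cox4i2 in pericyte-like cells, cluster 2 and the valve class.

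Most subunits made up a smaller part of the counted RNA in modulated SMC than in unmodulated SMC of the same library. Of 86 members tested, 64 were lower and 1 was higher (edgeR, adjusted p at most 0.05), where 15.3% of all 12225 genes tested were lower and 18.1% higher. The median log2 fold change was -0.27, against a median near 0 over all genes. The lower members were 32 of 37 in complex I, 2 of 8 assembly factors, 8 of 8 in complex III, 10 of 16 in complex IV and 12 of 17 in complex V, and their size was modest, with no member below -0.47. Without the Marfan libraries the count of lower members was 18, without those labelled Klf4-floxed 21, and without the control, which had only 140 modulated cells, 67.

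Ndufb8, an accessory complex I subunit, showed the largest decrease, at 216, 184 and 177 CPM in modulated and 284, 260 and 262 CPM in unmodulated SMC (log2 fold change -0.47 ± 0.047; edgeR adjusted p = 0.00075). Cox6a1 was at 397, 357 and 339 CPM against 508, 495 and 498 CPM (-0.45 ± 0.047; edgeR adjusted p = 0.00093), and Cox7c, a small subunit of complex IV, at 756, 736 and 712 CPM against 1019, 960 and 1009 CPM (-0.43 ± 0.047; edgeR adjusted p = 0.0011). In each of these the modulated values of all 3 genotypes lay below all unmodulated ones. Cox6b2 was the only member called higher, by 2.01 ± 0.11 (edgeR adjusted p = 0.00014). Cox4i2 (0.35; edgeR adjusted p = 0.13) and Ndufaf8 (0.096; edgeR adjusted p = 0.2) were higher in each genotype as well but did not pass the test. Among members that did not pass the test were Atp5g1 (406, 396 and 394 CPM against 375, 409 and 398 CPM), Cox7a2l, which takes part in joining complexes III and IV (383, 318 and 351 CPM against 411, 318 and 336 CPM), and Ndufs4 (114, 105 and 102 CPM against 111, 108 and 111 CPM). These 3 were chosen after their values were seen.

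The related lists pointed the same way. Of 13 genes of mitochondrial DNA 11 were lower in modulated SMC, with a median of -0.29, and of 13 citrate cycle genes 11, with a median of -0.33. In complex II, Sdhb and Sdhc were lower and Sdha and Sdhd did not pass. Of the carriers 3 of 4 were lower, with Slc25a4 at 753, 711 and 693 CPM against 1038, 997 and 1023 CPM (-0.49 ± 0.044; edgeR adjusted p = 0.00052). Among 13 regulators 1 was lower and none higher. Of 28 assembly factors outside the Ndufaf family 8 were lower and none higher, and of 7 hypoxia genes Vegfa was lower and Ldha, which makes lactate from pyruvate, higher. Modulated cells differed in other measures as well: the 7 SMC markers summed to 26699, 28068 and 25163 CPM, against 47964, 58978 and 54968 CPM in unmodulated SMC, the 9 fibroblast markers to 2056, 2179 and 2239 CPM, against 1427, 1625 and 1287 CPM, and the median share of mitochondrial DNA to 3.98%, 3.49% and 3.52%, against 4.82%, 3.95% and 4.71%. Their part in the decrease was not tested. Of the modulated clusters, cluster 10 had the lower share of the 90 genes, 2.07%, 2.13% and 2.17% (8, 426 and 622 cells). Cluster 7 had 2.50%, 2.43% and 2.46% (132, 1464 and 799 cells). With cells of at least 4000 UMIs, 65 members were lower.

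Macrophages or monocytes differed from fibroblasts complex by complex, on a scale that matters for the count. Of 89 members 50 were higher and 15 lower by TMM, where 34.7% of all 13005 genes tested were higher and 37.7% lower, and by library totals 25 were higher and 37 lower. No share of all genes was counted by library totals. Of the members called by TMM, 14 had the opposite direction by library totals. By CPM the median ratio of the members was -0.18, -0.093 and -0.13, against -0.44, -0.31 and -0.31 for all features. The complexes had different medians of CPM ratios: -0.43, -0.20 and -0.29 in complex I, -0.68, -0.56 and -0.56 for its assembly factors, -0.030, 0.11 and 0.064 in complex III, 0.15, 0.33 and 0.25 in complex IV and 0.042, 0.15 and 0.075 in complex V. In each genotype complex I and its assembly factors stood lowest and complex IV highest.

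Cox5a, a nuclear subunit of complex IV, was at 301, 405 and 349 CPM in macrophages and 153, 179 and 156 CPM in fibroblasts (log2 fold change 1.53 ± 0.075; edgeR adjusted p = 4.1e-06). Atp5g2 was at 432, 470 and 488 CPM against 298, 312 and 308 CPM (1.02). Lower by both scalings were Ndufa4 at 173, 204 and 228 CPM against 375, 394 and 382 CPM (-0.51), Ndufa11 at 105, 135 and 116 CPM against 229, 249 and 236 CPM (-0.59) and Ndufa5 at 108, 111 and 108 CPM against 237, 207 and 204 CPM (-0.56). These last 4 were chosen after their values were seen. The called members with the smallest fold changes were Ndufa4l2, Cox4i2 and Cox8b, which had 5, 3 and 1 UMIs in control macrophages. Cox6a2 and Cox7a1 stood beside Cox5a as the largest, at low levels: Cox7a1 was at 2.56, 5.57 and 2.29 CPM against 1.98, 1.44 and 1.61 CPM. It had 5, 59 and 12 UMIs in macrophages.

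Endothelial cells had 19 members higher and 7 lower than fibroblasts, where 22.3% of all 12640 genes tested were higher and 25.1% lower. By library totals 44 were higher and 4 lower, and by DESeq2 10 and 5. Shares of all genes were not counted under these alternatives. The CPM ratios of the members had medians of 0.21, 0.29 and 0.35, which lay beside those of all features at 0.27, 0.20 and 0.26. Ndufa8, an intermembrane space subunit of complex I, was at 233, 253 and 276 CPM against 123, 130 and 122 CPM (0.81 ± 0.090; edgeR adjusted p = 0.0004), Cox5a at 264, 346 and 321 CPM (0.72 ± 0.090; edgeR adjusted p = 0.00071) and Ndufb7 at 296, 328 and 328 CPM against 170, 185 and 168 CPM (0.66 ± 0.083; edgeR adjusted p = 0.00074). Ndufa4l2, Cox8b and Cox4i2 were again the lowest.

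The valve class had 7 members higher and 5 lower, where 15.3% of all 12473 genes tested were higher and 17.5% lower. By library totals 3 were higher and 12 lower, and by DESeq2 3 and 1, again without a share of all genes. Beside Cox4i2, the higher ones with the largest fold changes were Uqcrc1 at 82.9, 86.4 and 86.4 CPM against 74.97, 69.5 and 60.9 CPM (0.41 ± 0.093; edgeR adjusted p = 0.01) and Ndufb2 at 191, 211 and 218 CPM against 189, 178 and 163 CPM (0.31 ± 0.093; edgeR adjusted p = 0.032). Ndufa4l2 was the lowest (-2.58 ± 0.093; edgeR adjusted p = 4.7e-07), followed by Uqcrfs1, the Rieske iron-sulphur protein, at 52.4, 52.5 and 49.8 CPM against 65.9, 67.0 and 66.3 CPM (-0.27 ± 0.079; edgeR adjusted p = 0.028), and Atp5pb, a stator subunit of the synthase, at 193, 224 and 212 CPM against 260, 270 and 262 CPM (-0.25 ± 0.072; edgeR adjusted p = 0.031).

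Marfan and control SMC were compared to see whether respiratory genes differed in cells of the aneurysm-prone root. Most members had slightly lower CPM in the Marfan library: of the 80 members that reached 20 CPM in 1 library or both 73 lay below the control, with a median log2 ratio of -0.14, where the median of 5573 features was -0.093. As that median was negative, most features lay below the control too. A log2 ratio of 0.32 or more in size was set as the limit of note: no member was higher and 3 were lower by it, where 7.18% of features were higher and 10.4% lower. With median-of-ratios scaling the median was -0.048 and none was lower by the limit, and none was with a coarser clustering (Leiden resolution 0.5, median -0.090). By complex the medians were -0.16 in I, -0.13 for its assembly factors, -0.15 in III, -0.096 in IV and -0.13 in V. The 3 lower members were Ndufa6, an accessory complex I subunit, at 349 CPM in Marfan and 460 in control (-0.40, 95% interval -0.43 to -0.37), Ndufv3 at 225 and 292 CPM (-0.38, -0.42 to -0.34) and Cox7a2l at 318 and 410 CPM (-0.36, -0.39 to -0.33).

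In complexes I, III, IV and V some members stood level with the control or above it. The largest ratios were those of Ndufa11 at 508 against 463 CPM (0.14, 95% interval 0.11 to 0.16) and Ndufb6 at 208 against 197 CPM (0.076) in complex I, Uqcrq at 306 against 308 CPM (-0.011) in complex III, Cox5a at 293 against 274 CPM (0.097) in complex IV, and Atp5g1 at 405 against 376 CPM (0.10) and Atp5md at 286 against 269.9 CPM (0.086) in complex V. The other low ends were Uqcr11 at 343 against 405 CPM (-0.24) and Uqcrfs1 at 97.5 against 113 CPM (-0.21), Cox4i1 at 1248 against 1463 CPM (-0.23), Atp5c1, the rotor shaft of the synthase, at 326 against 399 CPM (-0.29) and Atp5g2 at 433 against 524 CPM (-0.28). The 3 subunit c genes thus had ratios of 0.10, -0.28 and -0.27.

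The share of modulated cells moved with this difference: 140 of 3329 SMC in control and 1890 of 9289 in Marfan were modulated. Among cells with at least 2000 UMIs the counts were 140 of 3229 and 1375 of 4276, so the Marfan share depends on the shallow cells. Within unmodulated SMC the median was -0.074, beside -0.075 for 5534 features, with 66 of 80 members below the control and 1, Cox7a2l (-0.37), past the limit, where 7.77% of features were lower and 5.48% higher. Members and features thus had nearly the same median there, and most features lay below the control too. The unmodulated cells lay in different clusters: 2338 of the 3189 control cells were in cluster 6 and 150 in cluster 0, and of the 7399 Marfan cells 344 were in cluster 6 and 5043 in cluster 0, whose median depth was 1333 UMIs. Igfbp2, from the list of modulated SMC markers, was among the leading genes of clusters 0 and 1, as it was in the modulated cluster 7. The name unmodulated is therefore less sure for cluster 0. Within cluster 6 the median was -0.087 over 79 members (-0.0096 over 5582 features), and within cluster 1, with 669 and 1906 cells, it was -0.0021 over 80 members (-0.054 over 5427 features). No member passed the limit in either cluster. Within modulated SMC it was -0.083 over 81 members, against -0.11 for features, with 1 member higher and 7 lower, where 7.93% and 18.1% of features were. Ndufa6 kept a low ratio in both, -0.30 and -0.37. Depth moved too, with median UMIs of 11675 in control and 1815 in Marfan SMC, as did the ribosomal share (15.1% and 13.2%). With cells of at least 4000 UMIs the median was -0.15, and with cells thinned to 2000 UMIs -0.13. Among the further lists, the medians were -0.21 for complex II, -0.16 for mitochondrial DNA, -0.23 for the citrate cycle, -0.14 for assembly factors, -0.18 for carriers and 0.028 for hypoxia genes. Suclg2, a subunit of succinate-CoA ligase, at 58.7 against 84.4 CPM (-0.53) and Cs, citrate synthase, at 42.8 against 56.0 CPM (-0.39) were the 2 citrate cycle genes past the limit, and Ppargc1a, the coactivator of mitochondrial biogenesis, was at 2.06 against 4.21 CPM.

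The library labelled Klf4-floxed differed little from Marfan in SMC. The median log2 ratio was 0.024 over 80 members, against 0.0060 over 5406 features, and no member passed the limit of 0.32, where 1.2% of features were higher and 1.83% lower. The extremes were Cox5a at 270 against 293 CPM (-0.12, 95% interval -0.15 to -0.08), Ndufa11 at 480 against 508 CPM (-0.083) on one side, and Ndufa3 at 167 against 155 CPM (0.10), Cox7a2l at 342 against 318 CPM (0.10), Atp5g2 at 464 against 433 CPM (0.10) and Ndufaf8 at 97.4 against 91 CPM (0.098) on the other. Complex III ranged from -0.015 (Uqcrc1) to 0.077 (Uqcrfs1). In unmodulated SMC the median was 0.044 and in modulated SMC 0.0031, again with no member past the limit, where 1.55% and 2.09% of features were higher and 2.42% and 2.55% lower.

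**Figure D4:**
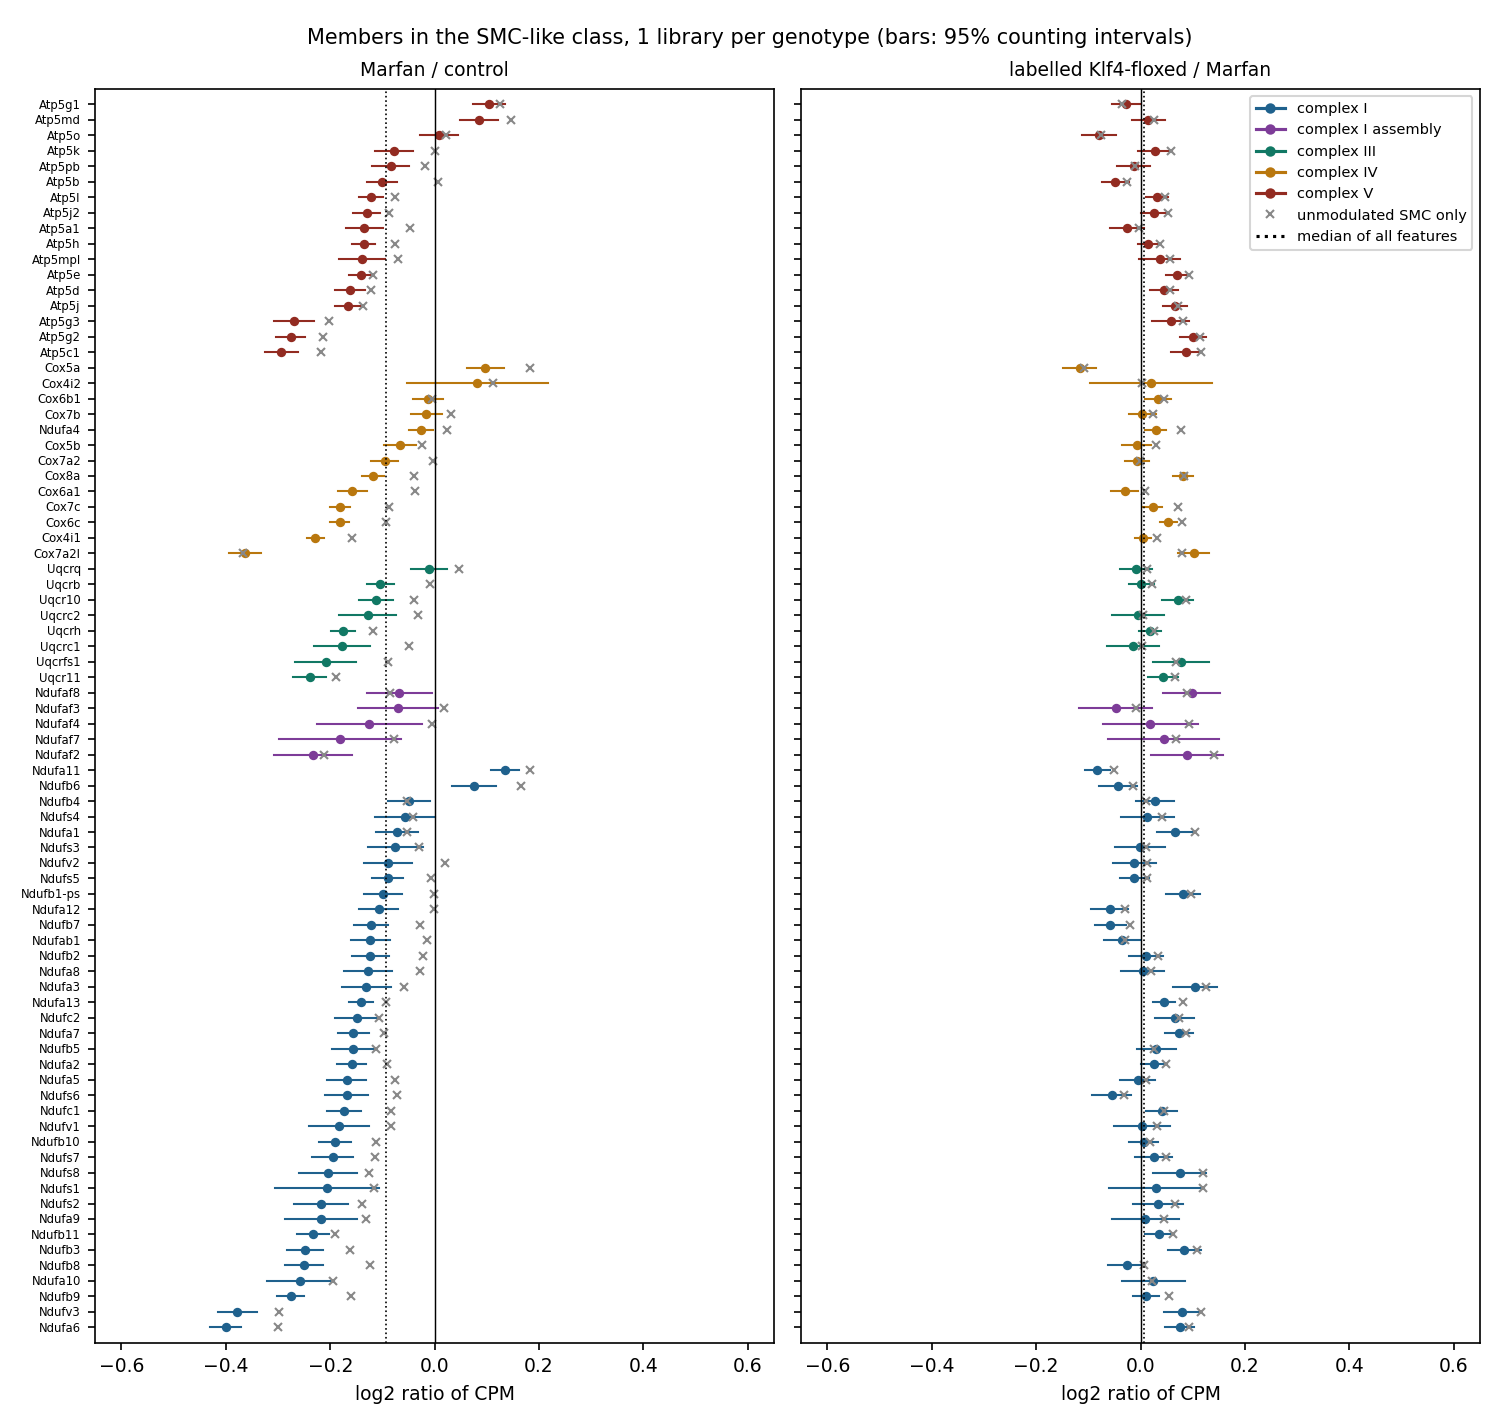
Log2 CPM ratios (x axis) of the 80 counted members in the SMC class (y axis, coloured by complex), for Marfan over control and, in the other panel, the library labelled Klf4-floxed over Marfan, with 95% counting intervals; crosses give unmodulated SMC only and dotted lines the median of all features. In the first comparison 73 of 80 members lie below 0, in the second 56 lie above and 24 below. The median of all features lies below 0 in the first and just above it in the second.

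In lineage-negative classes the median Marfan to control ratio of the members lay between 0.0027 and 0.18. Fibroblasts had a median of 0.0027 over 82 members, against -0.031 for 6268 features, with no member higher and 1, Cox4i2, lower by the limit of 0.32, where 5.42% of features were higher and 7.71% lower. This median lay above 0 in 7 of 12 alternatives and ran from -0.028 to 0.064. Cox4i2 was at 27.2 CPM in Marfan and 36.1 in control (-0.41, 95% interval -0.56 to -0.26), Atp5k, just inside the limit, at 174 and 216 CPM (-0.315), Ndufaf7 at 24.8 and 20.6 CPM (0.27) and Cox5a at 179 and 153 CPM (0.23). Cluster 16, where Cox4i2 was highest among the fibroblast clusters, held 109, 48 and 109 of the fibroblasts. In cluster 3 the Cox4i2 level was 31.3, 25.2 and 25.3 CPM, and in cluster 5 it was 32.3, 24.8 and 40.6 CPM, so the Marfan library was lower than control within both. Macrophages or monocytes had a median of 0.18 over 77 members, against 0.053 for 5273 features, with 12 members higher and none lower, where 17.4% of features were higher and 10.9% lower. The largest were Ndufs1 at 22.5 against 13.8 CPM (0.70, 0.13 to 1.34) and Ndufs4 at 92.2 against 59.99 CPM (0.62, 0.34 to 0.91). These control values rest on 177 cells. The class held 2 clusters in different proportions, with 137, 658 and 460 cells in cluster 9 and 40, 369 and 88 in cluster 14, and cluster 14 had the higher summed share (2.24%, 2.29% and 2.22% against 1.73%, 1.89% and 1.83%). Within cluster 9 the Marfan to control median was 0.19 over 76 members (0.049 over features), and within cluster 14 it was 0.050 over 78 members (0.039 over features).

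Endothelial cells had a median of 0.10 over 79 members, against -0.12 for 7083 features, with 3 members higher and 1 lower, where 11.9% of features were higher and 29.9% lower. Cluster 13, the lymphatic cells, held 138 of the 179 control and 215 of the 377 Marfan cells, and cluster 15 the rest. The median was 0.12 within cluster 13 (-0.076 over features) and 0.083 within cluster 15 (-0.099 over features), the latter from 41 control cells. Uqcrfs1 was at 97.6 against 69.8 CPM (0.48, 95% interval 0.13 to 0.85) and Ndufaf2 at 55.3 against 74.7 CPM (-0.43, -0.81 to -0.05). The valve class had a median of 0.13 over 82 members, against -0.025 for 6157 features, with 11 higher and none lower, where 11.6% of features were higher and 17.2% lower. Its largest were Cox4i2 at 232 against 154 CPM (0.59, 0.43 to 0.76) and Atp5g1 at 339 against 225 CPM (0.59, 0.45 to 0.72). Cox5a was above the control in each of the lineage-negative classes (0.23 in fibroblasts, 0.43 in macrophages, 0.39 in endothelial cells and 0.54 in the valve class), and Ndufa6 below it (-0.20, -0.21, -0.041 and -0.29), the endothelial interval of Ndufa6 spanning 0. Macrophage markers in the valve class summed to 99.5 and 191 CPM, and their part in these ratios was not tested.

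Between the library labelled Klf4-floxed and Marfan the medians of the members were -0.041 in fibroblasts, -0.086 in macrophages, 0.026 in endothelial cells and -0.038 in the valve class, against -0.018, -0.025, 0.033 and -0.059 for features. In fibroblasts 1 member was higher by the limit and 1 lower, where 3.63% of features were higher and 3.79% lower: Cox4i2 was at 34.6 against 27.2 CPM (0.35, 95% interval 0.20 to 0.50; higher within cluster 5 and at a like level within cluster 3, as given above) and Ndufaf7 at 18.9 against 24.8 CPM (-0.39, -0.56 to -0.21). In macrophages none was higher and 3 lower, where 8.14% and 10.1% of features were, with Ndufs1 at 17.5 against 22.5 CPM (-0.36) and Ndufb1-ps at 233 against 294 CPM (-0.33) the smallest. Within clusters 9 and 14 the macrophage medians were -0.062 and -0.059. In endothelial cells 2 were higher and none lower, where 12% and 8.29% of features were: Ndufs1 at 40.1 against 29.8 CPM (0.43, 0.0016 to 0.86) and Ndufaf7 at 24.7 against 19.2 CPM (0.36, -0.18 to 0.91). In the valve class 1 was higher and 3 lower, where 5.61% and 13.3% were, with Cox6b2 at 25.1 against 36.4 CPM (-0.54, -0.97 to -0.12) the smallest and Ndufaf3 at 49.8 against 38.3 CPM (0.38, 0.05 to 0.71) the largest. The same Marfan libraries enter both genotype comparisons.

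**Figure D5:**
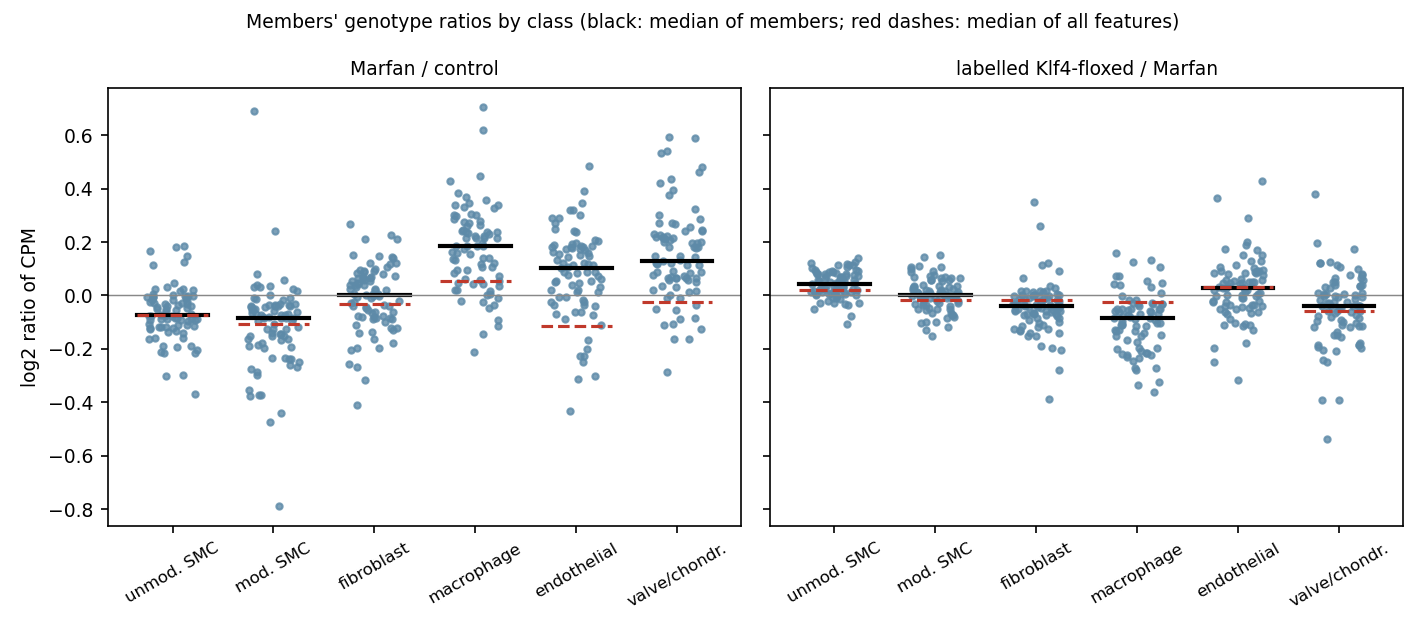
Log2 CPM ratios of members (points) in 6 classes (x axis) for Marfan over control (left) and the library labelled Klf4-floxed over Marfan (right), with the median of members (black) and of all features (red dashes). Member medians on the left run from -0.083 in modulated SMC to 0.18 in macrophages, and on the right from -0.086 to 0.044.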

How the data were processed

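The authors deposited raw UMI counts per gene and barcode for 6 libraries of Chromium 3' version 3 chemistry, made with Cell Ranger 6.1.2, per the file headers, and mm10 is named in the submitters' processing notes. The sources used here do not state the gene annotation or how barcodes were called. Cells with at least 1000 UMIs, 500 genes and at most 10% mitochondrial UMIs were kept. Doublets were scored with Scrublet in scanpy 1.11.5: its own threshold was used for the Marfan lineage-negative library (70 cells removed). In the other 5 it marked under 0.5%, so the highest scores were removed instead, at a rate of 0.8% for each 1000 cells (3.61% to 9.68% of a library). Cells were clustered (2000 variable genes without the members and further pathway genes, 30 components, 15 neighbours, Leiden resolution 1) without integration. Clusters were named from marker lists; the naming conditions were set after clusters were seen and before member levels were. Counts were summed per library and class. Class comparisons used edgeR 4.0.16 (TMM, filterByExpr, quasi-likelihood, genotype block), with DESeq2 1.42.0 as an alternative; the edgeR step was tested on simulated data. Ratios between genotypes have exact conditional binomial intervals and cover counting error only; features under 20 CPM in both libraries were not counted.

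Members, lists and rules were chosen with earlier results of these data known. Named members were the isoform pairs, the 2 largest and 2 smallest ratios per complex in SMC and per other class, and the 3 largest and smallest called fold changes per class comparison. Ndufs1, Ndufv1, Ndufb4, Ndufaf3, Atp5b and Atp5mpl in the comparison of SMC with fibroblasts, and Cox5a and Ndufa6 followed across classes, were added after their values were seen. Genes with pseudogene copies may share reads, which makes their level uncertain. CPM are relative to the summed UMIs of a class, so they do not give RNA per cell.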

Additional observations from a re-analysis of the deposited data

Results flagged for a closer look

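The Marfan to control ratio of the members had opposite signs in SMC and in macrophages or monocytes. The median log2 ratio was -0.14 over 80 members in the SMC class and 0.18 over 77 members in macrophages, where the medians of all features were -0.093 and 0.053. Of the members 73 of 80 lay below the control in SMC and 68 of 77 above it in macrophages. By their medians, most features lay on the same side as the members in each class. The genes encoded by mitochondrial DNA did not follow the members in macrophages. Each of them lay below the control there, from -0.49 (mt-Nd3) to -0.10 (mt-Nd1), and their median was below 0 in SMC too. Genes of complex II lay above the control in macrophages, from 0.18 (Sdha) to 0.48 (Sdhd). Each value compares 1 library with 1 library, and the difference between them was not tested.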

How the results depend on the processing

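The Marfan to control median in SMC stayed below 0 under all 14 alternatives, from -0.18 (scaling without mitochondrial and ribosomal genes) to -0.048 (median-of-ratios scaling); it was -0.084 with each cell counted alike, -0.097 with all barcodes as deposited, -0.090 at Leiden resolution 0.5 and, chosen after seeing the data, -0.074 without modulated clusters. Its count of 3 lower members became 0 at 1.5-fold, under median-of-ratios scaling and at resolution 0.5, 1 without modulated clusters and 5 with cells thinned to 2000 UMIs. Without the filter on low values it was 5, with 3 higher, and in the library labelled Klf4-floxed 1 was higher and 2 lower than in Marfan; that median turned to -0.026 with each cell counted alike. The fibroblast Marfan median was 0.064 with all barcodes as deposited and -0.028 without mitochondrial and ribosomal genes in the totals.

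Among class comparisons, library totals gave 25 higher and 37 lower members in macrophages, 44 and 4 in endothelial cells and 3 and 12 in the valve class, and turned the direction of 14 called members in macrophages and 2 in SMC. The cause of these moves was not tested. Shares of all genes were not counted under the alternatives, so these counts have no background beside them. DESeq2 gave 10 higher in endothelial cells and 3 and 1 in the valve class. In the valve class 3 were higher without the filter on low counts, and 4 higher and 2 lower without the genotype block. Leaving out 1 genotype gave 3 to 5 lower in SMC against fibroblasts, 18 to 67 lower in modulated SMC, 8 to 21 higher and 4 to 5 lower in endothelial cells, and 1 to 13 higher and 1 to 2 lower in the valve class. Genotype comparisons set 1 library against 1 and have no replicates to pair; genotype is the block of the class comparisons, as above. The 177 control macrophages and 140 control modulated cells limit the precision of their ratios.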
